A study of Mus musculus with 10 samples.

Results

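The WAVE regulatory complex was followed through its 10 subunit genes, Nckap1l, Nckap1, Cyfip1, Cyfip2, Wasf1, Wasf2, Wasf3, Abi1, Abi2 and Brk1, out of 55385 genes with an estimated read count in each library. The genes were taken by symbol after the Ensembl identifiers had been matched to the GENCODE M21 annotation, and all 10 were found. The members were chosen by measured values: Nckap1l and Cyfip2 stand in the study's tables of genes changed between the same groups, which led to the complex. The differences of the subunits between the groups are therefore described here with their errors, and no p-value of a subunit is printed. The number of subunits that passed a threshold is given as a description, and nothing is read from it. Adjusted p-values are printed for other genes, namely genes that act around the complex, markers of other cell types and neighbours of Nckap1l.

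The WAVE complex turns Rac signalling into branched actin. A Wasf (WAVE) protein activates the Arp2/3 complex, but it is held inactive by the other subunits until active Rac binds the Cyfip subunit, and the branched actin that follows pushes out the lamellipodium at the front of a moving cell. Each complex holds 1 protein from each of 5 slots, and 4 of the slots can be filled by paralogs: Nckap1 or Nckap1l (Hem1, the form of blood cells), Cyfip1 or Cyfip2, Wasf1, Wasf2 or Wasf3, and Abi1 or Abi2. Brk1 is the only gene of its slot.

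RNA was sequenced from cultured mouse melanoma cells in 2 groups of 5 libraries. Both groups carry the same genotype, Tyr∷NrasQ61K/°; INK4a−/−, in which Nras with the Q61K change is driven by the promoter of the pigment cell gene Tyr, and neither was treated with a drug. WT31 is the parental line. WT31_P5IV is the subline taken from liver metastases of WT31 in 5 rounds of tail vein injection, each followed by growth of the isolated cells in culture, and its RNA came from culture and not from the liver. The 5 libraries of a group are labelled biological replicates, but all WT31_P5IV libraries come from a single subline, so the error between libraries holds no spread between independently passaged lines. The libraries held 24255389 to 25750639 estimated counts, and 3 counts, used as the floor of detection, correspond to 0.114 to 0.129 CPM (counts per 1000000 counts, scaled for library composition with TMM). The melanocyte markers Mlana, Pmel, Dct, Tyr, Tyrp1, Mitf, Sox10 and Slc45a2 summed to 17627 to 19030 CPM in WT31 and 23105 to 26711 CPM in WT31_P5IV. The list did not move as one. Mean CPM was higher in WT31_P5IV for Dct (10233 against 5893), Pmel (4330 against 1860), Tyr (4675 against 3944) and Slc45a2 (946 against 589). It was lower for Tyrp1 (1564 against 3041), and the groups overlapped for Mlana, Mitf and Sox10. The deposited values are bulk measurements, in which fewer cells with a transcript and less transcript per cell cannot be told apart.

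The paralogs of a slot could be told apart by their sequence. Among all words of 31 bases in the annotated transcripts, read on both strands, no word of any subunit gene was shared with another of the 10. The coding sequence of Nckap1l matched that of Nckap1 in 66.3% of 3279 aligned positions, and the longest identical run was 17 bases. Cyfip2 matched Cyfip1 in 78.1% of 3750 aligned positions with a longest run of 24 bases, Wasf1 matched Wasf2 in 71.9% of 1377 positions with a longest run of 17, and Abi2 matched Abi1 in 73.5% of 1291 positions with a longest run of 23. The stretches around the longest shared runs of the Nckap and Cyfip pairs are printed because the paralog comparison below rests on reads being assigned to the right gene. Each is 60 bases of coding sequence from GENCODE M21 transcripts (GRCm38) in the sense of the gene, and the capitals mark the run that is identical in both paralogs. They lie in exon 23 of Nckap1l (chr15:103486348-103486407, plus strand), exon 24 of Nckap1 (chr2:80519581-80519640, minus strand), exon 29 of Cyfip2 (chr11:46200693-46200752, minus strand) and exon 30 of Cyfip1 (chr7:55926420-55926479, plus strand).
Nckap1l: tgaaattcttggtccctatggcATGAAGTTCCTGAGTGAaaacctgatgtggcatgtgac
Nckap1: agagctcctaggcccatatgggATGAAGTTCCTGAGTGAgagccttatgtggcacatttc
Cyfip2: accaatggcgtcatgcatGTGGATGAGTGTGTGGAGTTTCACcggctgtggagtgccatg
Cyfip1: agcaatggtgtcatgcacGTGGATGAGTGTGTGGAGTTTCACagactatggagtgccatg

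In the Nckap stretch 45 of 60 bases were identical, and in the Cyfip stretch 54 of 60. Words shared with genes outside the complex were frequent only for Cyfip1, where 12.9% of 12098 words were shared, most of them (1286) with Nipa2, which overlaps Cyfip1 on the opposite strand over 1316 exonic bases. For Abi1 it was 3.94% of 4161 words, all in the overlap with Pdss1 on the opposite strand, and for the other subunits at most 0.776%. Nipa2 was at 1301 to 2095 counts and Pdss1 at 331 to 403, and the strand setting of the counting is not given in the sources used here, so reads from these overlaps could have been split between the genes.

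The clearest differences lay in the paralogs. Nckap1l had at most 1 count in a WT31 library and 22 to 32 counts in each WT31_P5IV library, and Cyfip2 was 2.86-fold lower in WT31_P5IV. Another 6 subunits were lower in WT31_P5IV by smaller amounts, and Brk1 was slightly higher on the CPM scale. In the fit over 13620 genes with edgeR's quasi-likelihood test, 9 subunits passed the filter on low counts and all 9 passed an adjusted p of 0.05, 2 higher and 7 lower, beside 68.5% of all genes tested (34.6% higher and 33.9% lower). Nothing is read from that count, since the subunits were chosen on the same contrast and Nckap1l passed the filter through WT31_P5IV alone. The number higher was 1 in place of 2 under several alternatives. Brk1 was the one lost without WT31 replicate 2, WT31 replicate 3, both of them or WT31_P5IV replicate 4. It was also lost with DESeq2, on TPM, with no filter, and with voom without scaling or filter. With 10 counts asked of each library Brk1 was kept and Nckap1l was not tested. Past a log2 fold change of 1 or -1 were 2 subunits, Nckap1l and Cyfip2, beside 9.19% of all genes tested (5.49% higher and 3.69% lower). In all 9 tested subunits the CPM values of the groups did not overlap, beside 54.1% of all genes tested (26.6% higher and 27.5% lower). Wasf3 did not pass the filter.

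**Figure D1:**
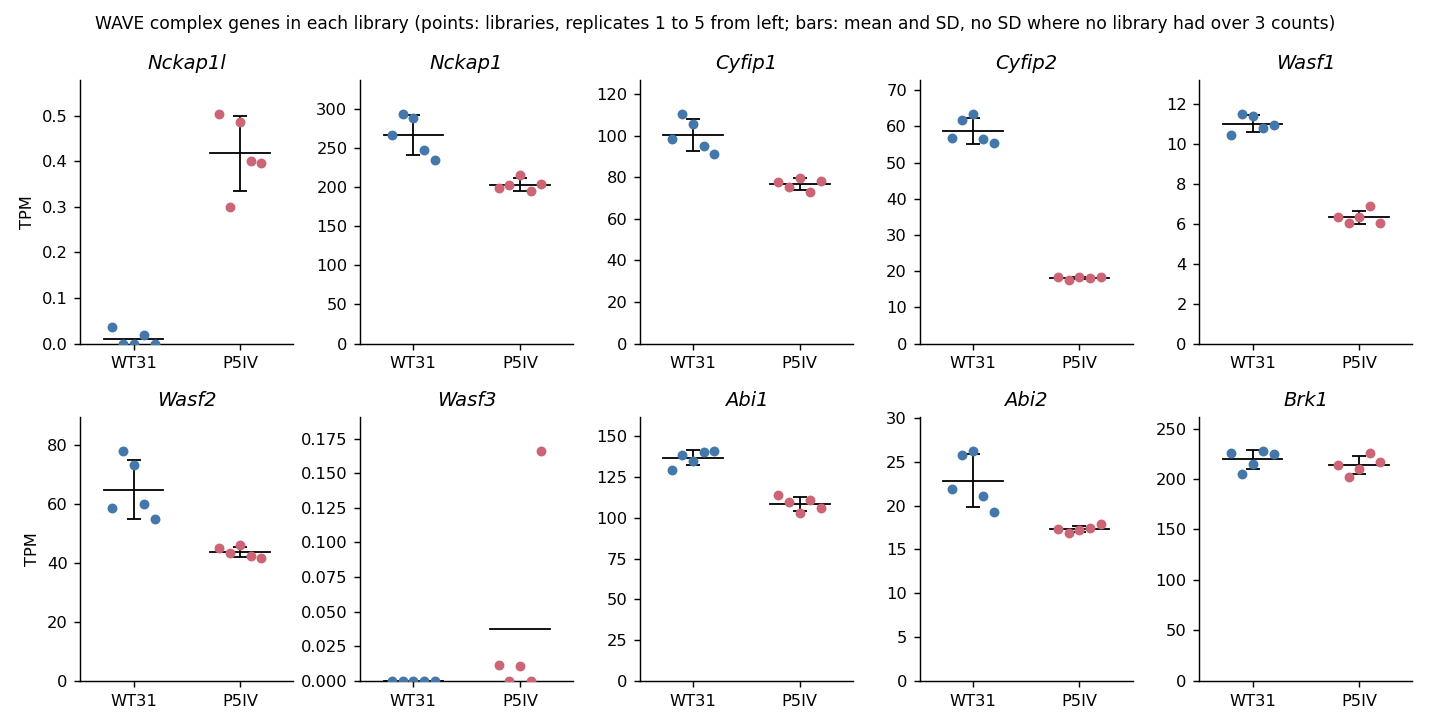
TPM (transcripts per 1000000 transcripts, linear axis from 0, a separate scale for each gene) of the 10 WAVE complex genes in the 5 WT31 and 5 WT31_P5IV (P5IV) libraries, with points for libraries, long bars for means and capped bars for the SD. Nckap1l lies at 0 to 0.0354 in WT31 and 0.301 to 0.504 in WT31_P5IV, Cyfip2 lies at 55.4 to 63.4 in WT31 and 17.6 to 18.5 in WT31_P5IV, and only for Brk1 and the nearly uncounted Wasf3 do the groups overlap.

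Nckap1l (ENSMUSG00000022488) lies at chr15:103453794-103498810 on the plus strand. It had 1, 0, 0, 1 and 0 counts in the 5 WT31 libraries and 29, 24, 30, 22 and 32 counts in the 5 WT31_P5IV libraries, in the order of the replicate numbers. Every WT31 library was thus under the floor of 3 counts, and every WT31_P5IV library was above it. In all, 2 counts were seen in WT31 and 137 in WT31_P5IV. The mean of WT31_P5IV was 1.14 ± 0.159 CPM (SD, n = 5), which is at least 9.74-fold higher than 3 counts per WT31 library. The fitted log2 fold change depends on how the fit treats the zeros and is therefore not given as a size, although 3 of the 13620 genes tested had a higher one. Since the gene passed the filter on low counts through WT31_P5IV alone, its fitted value had to be large.

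Per length, Nckap1l stayed far under its paralog. Its TPM in the WT31_P5IV libraries was 0.504, 0.301, 0.487, 0.40 and 0.396, against 199, 203, 216, 195 and 204 for Nckap1. Nckap1 thus exceeded Nckap1l by 394 to 677 times within the same libraries. Nckap1l made up 0.205% ± 0.0391 (SD, n = 5) of the TPM of the Nckap slot in WT31_P5IV and 0.00418% ± 0.00605 in WT31. With counts divided by the mean annotated transcript length in place of TPM, its share in WT31_P5IV was 0.103%.

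The ratio of counts to TPM gives the transcript length that the estimation assigned to a gene in a library. For Nckap1l this length was 3400, 4605, 3506, 3231 and 4725 bases in the WT31_P5IV libraries. The longest of these equals the annotated protein-coding transcript of 4725 bases, so in replicate 5 all counts stood on it, while the other libraries included shorter or other entries. The single counts of WT31 replicates 1 and 4 stood at lengths of 1848 and 3235 bases, which are the lengths of the 2 processed transcripts annotated without a coding sequence. With 22 to 32 counts in a library the split between transcripts is coarse, and this view was added after the values had been seen.

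Because Nckap1l is the form of blood cells, a list of 20 leukocyte and macrophage markers was read in the same libraries. Of the 20, 12 had at most 3 counts, after rounding, in every library, and Cd53, Tyrobp, Dock2 and Ikzf1 had no count at all. Ptprc (CD45, the pan-leukocyte surface phosphatase) had 0 to 2 counts in WT31 and 0 to 1 in WT31_P5IV, and Adgre1 (F4/80 of macrophages) had 1 count in a single WT31_P5IV library. The other 8 reached higher counts in at least 1 library.

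Of the list, 5 markers were abundant enough to be tested, and they went in both directions. Laptm5, a lysosomal membrane protein of blood cells, fell by 0.96 ± 0.09 (log2, SE; adjusted p = 2.51e-07) and Lyz2, the macrophage lysozyme, fell by 2.01 ± 0.13 (adjusted p = 7.64e-09). Cd68, a lysosomal glycoprotein rich in macrophages, rose by 1.45 ± 0.20 (adjusted p = 1.16e-05) and Fcer1g, the Fc receptor gamma chain, rose by 0.46 ± 0.14 (adjusted p = 0.0101). The call of Fcer1g was lost with DESeq2 (0.43, adjusted p = 0.0692) and with no filter (0.40, adjusted p = 0.0702). It was also lost with voom without scaling or filter (0.39, adjusted p = 0.0750). Was, the blood cell relative of the Wasf proteins, did not pass the test, with a log2 fold change of 0.38 ± 0.27 (adjusted p = 0.225). The summed level of the list was 18.8 to 23.6 CPM in WT31 and 13.9 to 16.2 CPM in WT31_P5IV, with Laptm5, the most abundant of them, at means of 13.8 and 7.11 CPM. Among the untested markers Itgb2 had 1 to 3 counts in WT31 and 3 to 7 in WT31_P5IV. In CPM its groups did not overlap, but the highest WT31 library (0.118) and the lowest WT31_P5IV library (0.124) lay near the floor. The study lists Itgb2 among its significantly upregulated genes. Coro1a had 0 to 2 and 0 to 7 counts, with overlapping groups. The part of these transcripts in the Nckap1l difference was not tested.

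**Figure D2:**
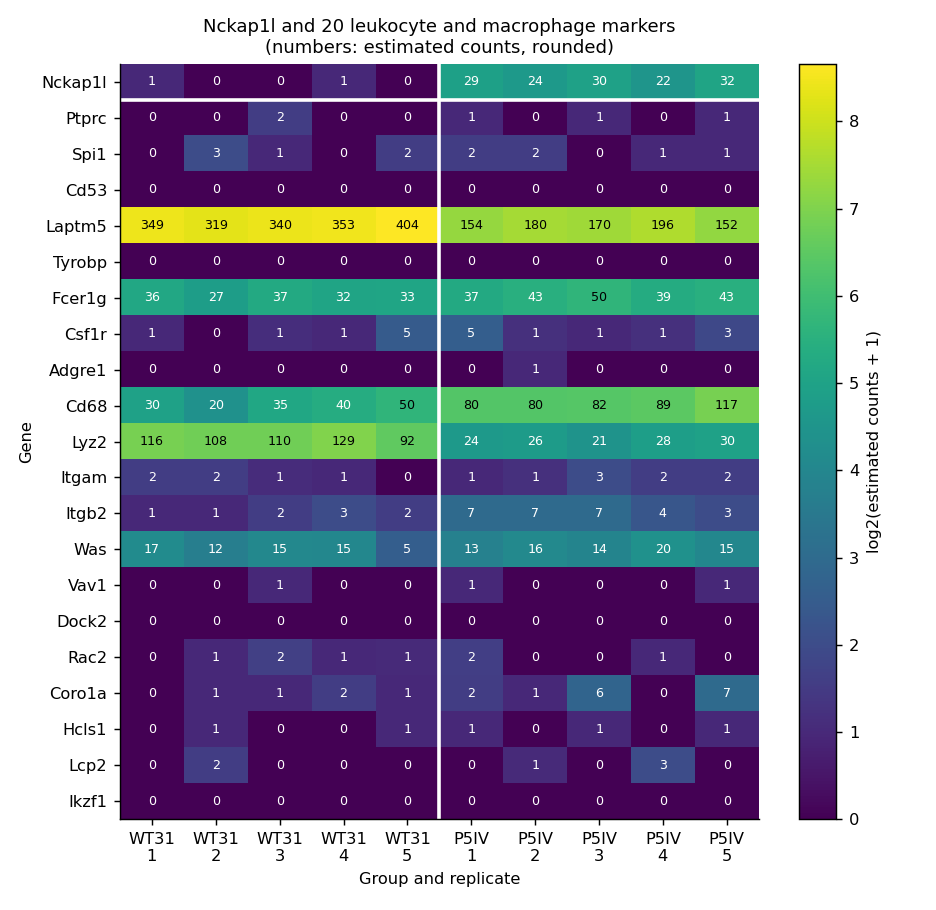
Estimated counts of Nckap1l (top row) and of 20 leukocyte and macrophage markers in each of the 10 libraries, printed in the cells and coloured as log2(estimated counts + 1). Nckap1l goes from 0 to 1 counts in WT31 to 22 to 32 in WT31_P5IV (P5IV), while Cd53, Tyrobp, Dock2 and Ikzf1 stay at 0 in every library and Laptm5 and Lyz2 are lower in WT31_P5IV.

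Markers of liver and vessel cells were read for the same reason, since the subline came from the liver. Of 8 hepatocyte markers 2 were tested, of which Ttr (transthyretin) did not pass (0.26 ± 0.29, adjusted p = 0.438) and Trf (transferrin) rose from 337 to 561 CPM (log2 fold change 0.73 ± 0.04, adjusted p = 9.24e-10), and it carried nearly the whole sum of the list, 325 to 347 CPM in WT31 and 528 to 598 CPM in WT31_P5IV. Albumin (Alb) had no count in WT31 and 0 to 9 counts in WT31_P5IV, Apoa1 had none and 0 to 4, and Apoa2 had 7 to 10 and 6 to 17. Serpina1a, Fgb and Cyp3a11 had no count in any library. None of 8 endothelial markers was abundant enough to be tested, and the list summed to 0.158 to 0.492 CPM in WT31 and 0.161 to 0.463 CPM in WT31_P5IV. Of 8 stellate cell and fibroblast markers 3 were tested, of which Pdgfrb did not pass (-0.19 ± 0.32, adjusted p = 0.618) and Acta2 (log2 fold change 1.47 ± 0.32, adjusted p = 0.000969) and Col1a1 (1.00 ± 0.18, adjusted p = 0.000156) rose, from 0.275 to 0.758 and from 0.868 to 1.73 mean CPM. Untested, Des, Lrat, Dcn, Lum and Reln had mean CPM of 0.234, 0.171, 0.157, 0.0235 and 0.0079 in WT31 and 0.209, 0.0674, 0.134, 0.0326 and 0.0419 in WT31_P5IV, with overlapping groups in each, and the list summed to 2.00 to 2.66 CPM in WT31 and 3.22 to 3.66 CPM in WT31_P5IV. The part of these low transcripts in the Nckap1l difference was not tested.

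The surroundings of Nckap1l on chromosome 15 did not move as a block. Within 500 kb on either side 42 genes are annotated, of which 21 had no count and 7 could be tested. Itga5, the fibronectin receptor subunit 87.0 kb upstream, rose by 0.66 ± 0.04 (log2, SE; adjusted p = 4.94e-09). Zfp385a (-0.87 ± 0.08, adjusted p = 2.79e-07), Hnrnpa1 (-0.51 ± 0.04, adjusted p = 2.58e-08), Copz1 (-0.29 ± 0.04, adjusted p = 1.33e-05) and Cbx5 (-0.16 ± 0.05, adjusted p = 0.00675) fell, and Smug1 (-0.01 ± 0.05, adjusted p = 0.927) and Gm49273 (0.39 ± 0.42, adjusted p = 0.423) did not pass the test, although Smug1 was called lower with limma on log2(TPM + 0.1) (-0.24, adjusted p = 0.0251). The nearest neighbours had few counts or none: Gtsf2, 5.33 kb upstream, had no count in any library, and Pde1b, 4.22 kb downstream, had 0 to 2 counts in WT31 and 0 to 3 in WT31_P5IV. By the distance of gene-centred log2 CPM over the 10 libraries, the 5 tested genes whose pattern was most like that of Nckap1l were Ptk7, Mlxipl, Pcdhgb1, Tap1 and Clstn3, at distances of 0.996 to 1.11. The 5 were picked for that pattern, so being low in WT31 and high in WT31_P5IV was fixed by the choice. Counts were, for example, 95 to 126 and 1039 to 1138 for Ptk7 and 2 to 6 and 57 to 73 for Clstn3. The log2 CPM held a prior of 2 counts, which shrinks the step of a gene with few counts such as Nckap1l. Pcdhgb1 belongs to a gene cluster whose members share exons, so its count is uncertain.

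Nckap1, which fills the same slot in most tissues (chr2:80500512-80581380), had 759, 804, 807, 719 and 695 CPM in WT31 and 627, 664, 679, 624 and 637 CPM in WT31_P5IV. The groups did not overlap, but the lowest WT31 library and the highest WT31_P5IV library lay close together, at 695 and 679 CPM. The means were 757 ± 49.9 and 646 ± 24.0 CPM (SD, n = 5), a log2 fold change of -0.23 ± 0.05 (SE). On the TPM scale the means were 267 ± 25.4 in WT31 and 204 ± 8.0 in WT31_P5IV.

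Cyfip2 (chr11:46193850-46312859) and Cyfip1 (chr7:55841745-55932602) encode the subunits that bind Rac. Cyfip2 had 232, 243, 254, 236 and 235 CPM in WT31 and 85.5, 83.7, 83.6, 84.1 and 82.4 CPM in WT31_P5IV. No WT31_P5IV library came near the WT31 range, and the spread between libraries was small in both groups. The means were 240 ± 8.82 and 83.9 ± 1.08 CPM (SD, n = 5), a log2 fold change of -1.52 ± 0.03 (SE), and 301 of the 13620 genes tested had a lower one. The counts behind them were 5922 to 6476 and 1951 to 2079.

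Cyfip1 had 277, 293, 294, 273 and 269 CPM in WT31 and 240, 244, 239, 230 and 232 CPM in WT31_P5IV. The groups did not overlap, and the log2 fold change was -0.25 ± 0.04 (SE). Both paralogs of the Cyfip slot were thus lower in WT31_P5IV, Cyfip2 by far the more. Per length, the ratio of Cyfip1 to Cyfip2 was 1.65 to 1.79 in the WT31 libraries and 4.03 to 4.36 in the WT31_P5IV libraries. Cyfip2 made up 37.0% ± 0.786 (SD, n = 5) of the TPM of the slot in WT31 and 19.1% ± 0.480 in WT31_P5IV. The slot as a whole stood at 159 ± 11.1 TPM in WT31 and 94.9 ± 2.95 TPM in WT31_P5IV.

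The Wasf genes encode the subunit that activates Arp2/3. Wasf2, the broadly expressed form (chr4:133130505-133199756), had 201, 226, 223, 208 and 199 CPM in WT31 and 169, 161, 164, 169 and 158 CPM in WT31_P5IV. The groups did not overlap, and the log2 fold change was -0.36 ± 0.04 (SE). Wasf1, best known from brain (chr10:40883475-40938570), had 17.2, 18.5, 18.4, 18.4 and 18.8 CPM in WT31 and 11.9, 11.5, 11.6, 13.1 and 11.2 CPM in WT31_P5IV. Every WT31_P5IV library was under every WT31 library, and the log2 fold change of -0.62 ± 0.05 (SE) was smaller in size than that of Cyfip2 and larger than those of Nckap1, Cyfip1, Wasf2, Abi1, Abi2 and Brk1. Wasf3 (chr5:146384985-146473615) had no count in WT31 and 0 to 1 count in WT31_P5IV, under the floor in every library. Wasf1 made up 14.7% ± 1.5 (SD, n = 5) of the TPM of the Wasf slot in WT31 and 12.6% ± 0.773 in WT31_P5IV, with ranges of 12.9% to 16.7% and 12.1% to 14.0% that overlap, so on TPM its share of the slot did not separate the groups. With counts divided by the mean annotated transcript length the shares of Wasf1 were 4.91% and 4.13%, with ranges of 4.66% to 5.34% and 4.04% to 4.41% that do not overlap, so their size and their overlap depend on the length used.

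Abi1 (chr2:22940073-23040241) and Abi2 (chr1:60409619-60481158) encode the adaptor slot. Abi1 had 190, 193, 193, 192 and 190 CPM in WT31 and 152, 147, 149, 156 and 148 CPM in WT31_P5IV. Its WT31 libraries had a coefficient of variation of 0.893%, the smallest of the subunits in WT31, and the log2 fold change was -0.35 ± 0.03 (SE). Abi2 had 70.9, 80.6, 80.0, 69.9 and 66.2 CPM in WT31 and 59.9, 61.0, 61.3, 62.8 and 61.1 CPM in WT31_P5IV. Here the coefficient of variation in WT31 was 8.75% and replicate 5 came close to the WT31_P5IV range, and the log2 fold change was -0.26 ± 0.05 (SE). Abi2 held 14.3% ± 1.75 (SD, n = 5) of the TPM of the slot in WT31 and 13.8% ± 0.573 in WT31_P5IV, with overlapping ranges, and 28.2% and 29.4% with counts divided by the mean annotated transcript length.

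Abi1 differed from the other subunits in the transcript length that its counts and TPM imply. The implied length was 2386, 2348, 2383, 2186 and 2135 bases in WT31 and 1958, 1921, 2130, 2035 and 2089 bases in WT31_P5IV, so that the groups stood apart by the small gap between 2135 and 2130. The difference of Abi1 relative to the median of all genes was -0.36 on the count scale and -0.20 on the TPM scale (limma on log2(TPM + 0.1)). This view was added after the values had been seen and was not tested.

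Brk1 (chr6:113604772-113616951), the smallest subunit, was the exception among the well expressed subunits. It had 136, 120, 126, 140 and 140 CPM in WT31 and 147, 141, 142, 156 and 144 CPM in WT31_P5IV. The groups did not overlap, yet the highest WT31 library (140 CPM) and the lowest WT31_P5IV library (141 CPM) almost touched, and the log2 fold change was 0.14 ± 0.05 (SE). On the TPM scale Brk1 went the other way, with 220 ± 9.32 in WT31 and 214 ± 8.79 in WT31_P5IV (SD, n = 5), and the ranges of 205 to 227 and 202 to 226 overlapped. The TPM scale moves the median of all genes to -0.14 against 0.01 on the count scale, and it leaves 32.9% of the called genes higher against 50.5%. Relative to that median Brk1 was higher by 0.13 on the count scale and 0.10 on the TPM scale, so its sign depended on the scale only before that shift was taken off. Without single libraries the log2 fold change of Brk1 was 0.09 to 0.15. Brk1 lies on chromosome 6, where the median log2 fold change of the tested genes was 0.28, above that of Brk1. Relative to the median of all genes, Nckap1, Cyfip1, Cyfip2, Wasf1, Wasf2, Abi1 and Abi2 were lower under the edgeR fit and every alternative, and Nckap1l was higher under every fit that tested it.

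Taken by slot and per length, the 10 genes summed to 832 to 925 TPM in the WT31 libraries and 675 to 697 TPM in the WT31_P5IV libraries, without overlap. On the TPM scale the median log2 fold change of all genes was -0.14, and that shift is not taken off these sums. In WT31 the order of the slot means was Nckap (267 ± 25.4 TPM), Brk1 (220 ± 9.32), Abi (160 ± 4.87), Cyfip (159 ± 11.1) and Wasf (75.9 ± 10.4; SD, n = 5). Abi and Cyfip did not differ beyond their spread, since Cyfip exceeded Abi in replicates 1, 2 and 3 and Abi exceeded Cyfip in replicates 4 and 5. In WT31_P5IV it was Brk1 (214 ± 8.79 TPM), Nckap (204 ± 8.02), Abi (126 ± 4.3), Cyfip (94.9 ± 2.95) and Wasf (50.1 ± 1.82; SD, n = 5). There Brk1 and Nckap did not differ beyond their spread, with Brk1 above Nckap in replicates 1, 4 and 5 and below it in replicates 2 and 3. The order Nckap, Brk1, Abi, Cyfip and Wasf was found in both groups, in WT31 replicates 4 and 5 and WT31_P5IV replicates 2 and 3, so the order did not separate them. The Nckap slot held 28.3% to 31.8% of the summed TPM in WT31 and 28.4% to 31.1% in WT31_P5IV, while Brk1 held 22.2% to 26.95% and 29.9% to 32.7%. These are levels of RNA, and the amount of assembled complex was not measured.

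**Figure D3:**
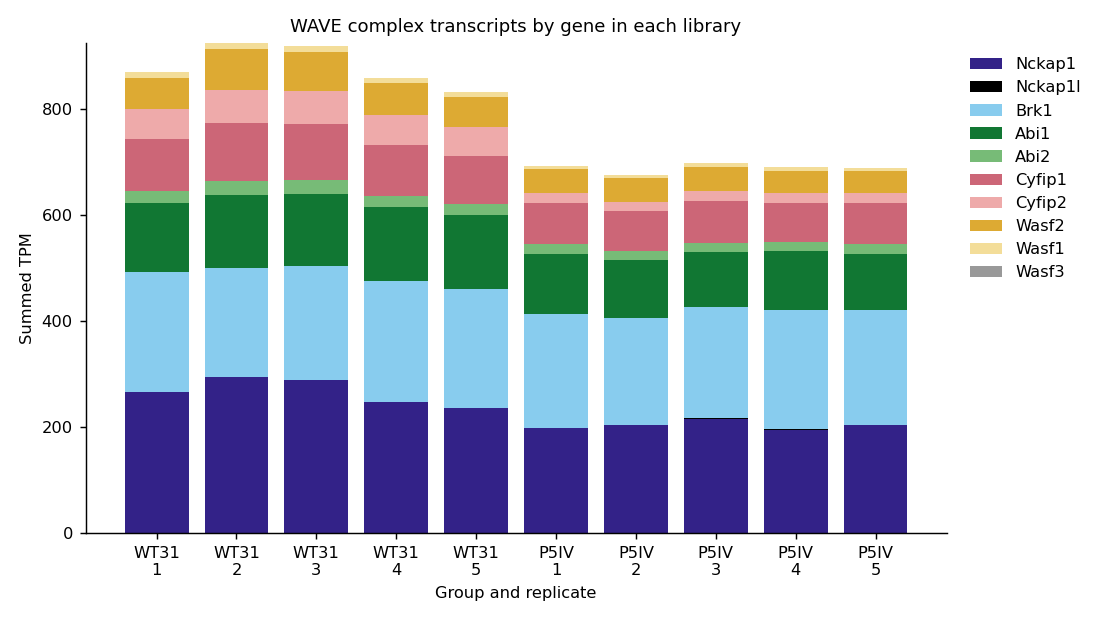
Summed TPM of the 10 WAVE complex genes, stacked by gene, in the 5 WT31 and the 5 WT31_P5IV (P5IV) libraries. The stacks reach 832 to 925 TPM in WT31 and 675 to 697 in WT31_P5IV, the Cyfip2 segment is 55.4 to 63.4 TPM in WT31 and 17.6 to 18.5 TPM in WT31_P5IV, and Nckap1l and Wasf3 are too small to be seen at this scale.

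Over the tested genes with a mean log2 CPM above 3, the WT31 libraries differed with transcript length. WT31 replicates 2 and 3 stood apart from the other 3: in the fifth of genes with the shortest transcripts their median deviation from the group mean was -0.11 and -0.07 (log2 CPM), and in the fifth with the longest transcripts 0.10 and 0.08. The same libraries held the highest WT31 values of Nckap1, Cyfip1, Cyfip2, Wasf2 and Abi2 and the lowest of Brk1, whose transcript is short. They did not stand out for Wasf1, which was highest in replicate 5, and for Abi1 they deviated by 0.01 only. In WT31_P5IV the medians of the shortest and longest classes lay between -0.04 and 0.03. Without WT31 replicates 2 and 3 together, an alternative added after the data had been seen, the log2 fold change of Brk1 was 0.05, and the 7 lower subunits and Nckap1l kept their direction.

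**Figure D4:**
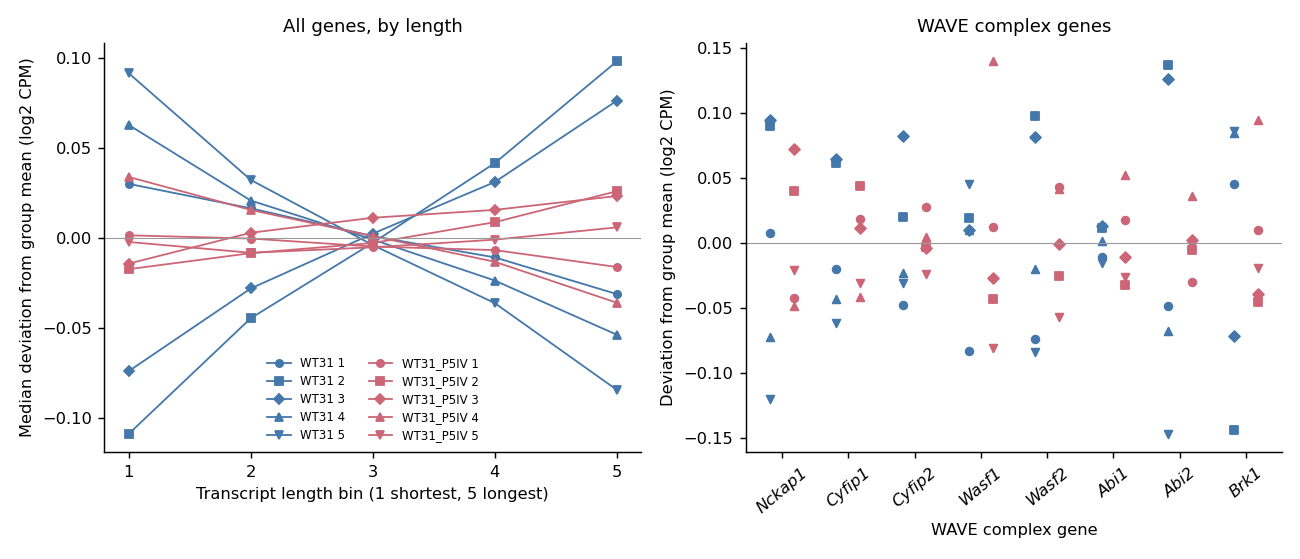
Left, the median deviation of each library from its group mean (log2 CPM) for tested genes with a mean log2 CPM above 3, in 5 bins of transcript length. Right, the deviation of 8 WAVE complex genes in the same libraries, with the same colours and symbols. WT31 replicates 2 and 3 reach -0.11 and -0.07 in the shortest bin and 0.10 and 0.08 in the longest, and stand highest for Nckap1, Cyfip1, Cyfip2, Wasf2 and Abi2 and lowest for Brk1.

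Around the complex, 7 lists with 102 entries were read, from the GTPases that switch it on to the actin it builds. In each of them more tested genes fell than rose, under the edgeR fit and every alternative, and each list's median lay below 0.01, the median of all genes tested. The percentages of all genes called higher and lower, 34.6% and 33.9%, are the background for these counts, and nothing particular to a list is read from them.

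Upstream, 11 of 12 Rac and Arf GTPases and adaptors were tested, of which 2 rose and 8 fell, with a median log2 fold change of -0.19. Rac1, the main switch of the complex, fell from 598 ± 7.13 to 456 ± 13.0 CPM (SD, n = 5; log2 fold change -0.39 ± 0.03, adjusted p = 5.61e-08). Rac3 rose from 2.80 to 4.75 mean CPM (0.77 ± 0.11, adjusted p = 2.39e-05), and Rac2, the Rac of blood cells, stayed at 0 to 2 counts in both groups. The kinase Abl2 (-0.46 ± 0.08, adjusted p = 0.000172) and the adaptor Nck1 (-0.40 ± 0.06, adjusted p = 1.43e-05) fell.

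Of 20 exchange factors that load Rac with GTP, 14 were tested, of which 3 rose and 8 fell (median -0.15). Elmo3, a partner of the Dock proteins, rose by 1.23 ± 0.17 (adjusted p = 1.47e-05), and Dock3 (0.59 ± 0.07, adjusted p = 3.27e-06) and Trio (0.37 ± 0.08, adjusted p = 0.00101) rose as well. Prex2, which answers to phosphoinositides, fell by 0.87 ± 0.10 (adjusted p = 1.48e-06). Dock2 and Vav1, the exchange factors of blood cells, had no count and 0 to 1 count.

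Of 17 inhibitors of Rac, WAVE or Arp2/3, 12 were tested, of which 1 (Coro1b, 0.14 ± 0.05, adjusted p = 0.0318) rose and 9 fell, and their median of -0.39 was the lowest of the 7 lists in the edgeR fit, ranging from -0.57 to -0.24 over the alternatives. The Rac GTPase-activating protein Arhgap24 fell from 14 to 21 counts to 0 to 3 counts (adjusted p = 2.34e-06), and its relative Arhgap22 fell by 1.08 ± 0.17 (adjusted p = 4.27e-05). Srgap1 (-0.74 ± 0.07, adjusted p = 1.49e-07) and Gmfb, which takes Arp2/3 branches apart (-0.73 ± 0.05, adjusted p = 4.08e-09), fell as well. The call of Coro1b was lost without any of WT31 replicates 1, 2 and 3 and WT31_P5IV replicates 1, 2, 4 and 5.

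Of 10 genes for subunits of the Arp2/3 complex, the machine that the WAVE complex activates, 9 were tested, of which 2 rose and 6 fell (median -0.24). Actr2 (-0.57 ± 0.05, adjusted p = 4.36e-08), Arpc2 (-0.39 ± 0.04, adjusted p = 5.81e-07) and Actr3 (-0.35 ± 0.03, adjusted p = 3.33e-07) fell. Arpc4 rose by 0.32 ± 0.05 (adjusted p = 3.18e-05) and lies, like Brk1, on chromosome 6, where the median of all tested genes was 0.28. Arpc5l, the other gene that rose (0.09 ± 0.03, adjusted p = 0.0227), lost the call without any of WT31 replicates 1, 2, 3 and 4 and WT31_P5IV replicates 1, 3 and 5.

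Among 15 other activators and partners of Arp2/3, 14 were tested, of which 5 rose and 6 fell (median -0.06). Wipf1, the partner that stabilises the Was proteins, fell from 28.99 ± 1.39 to 6.09 ± 0.572 CPM (SD, n = 5; log2 fold change -2.25 ± 0.06, adjusted p = 9.14e-13). Abi3, a relative of Abi1 and Abi2 that can join the complex, rose from 0.366 ± 0.110 to 0.839 ± 0.349 CPM (1.19 ± 0.33, adjusted p = 0.00529). Whamm (0.53 ± 0.05, adjusted p = 2.53e-07) rose and Washc5 of the endosomal WASH complex (-0.44 ± 0.03, adjusted p = 1.07e-08) fell.

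Of 24 genes for actin and for proteins of its monomers and filament ends, 22 were tested, of which 3 rose and 15 fell (median -0.22). Pfn2 (-0.57 ± 0.07, adjusted p = 4.39e-06), cytoplasmic gamma-actin Actg1 (-0.52 ± 0.04, adjusted p = 3.99e-08), Twf1 (-0.51 ± 0.04, adjusted p = 3.40e-08) and the capping protein subunit Capza1 (-0.49 ± 0.04, adjusted p = 2.03e-08) fell. Cyfip proteins also act in translation by binding the RNA-binding protein Fmr1 and the cap-binding factor Eif4e. Of the 4 genes of that list 3 fell and none rose, Eif4e by 0.48 ± 0.03 (adjusted p = 1.81e-08), Fxr1 by 0.36 ± 0.05 (adjusted p = 5.53e-06) and Fmr1 by 0.27 ± 0.07 (adjusted p = 0.0026).

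**Figure D5:**
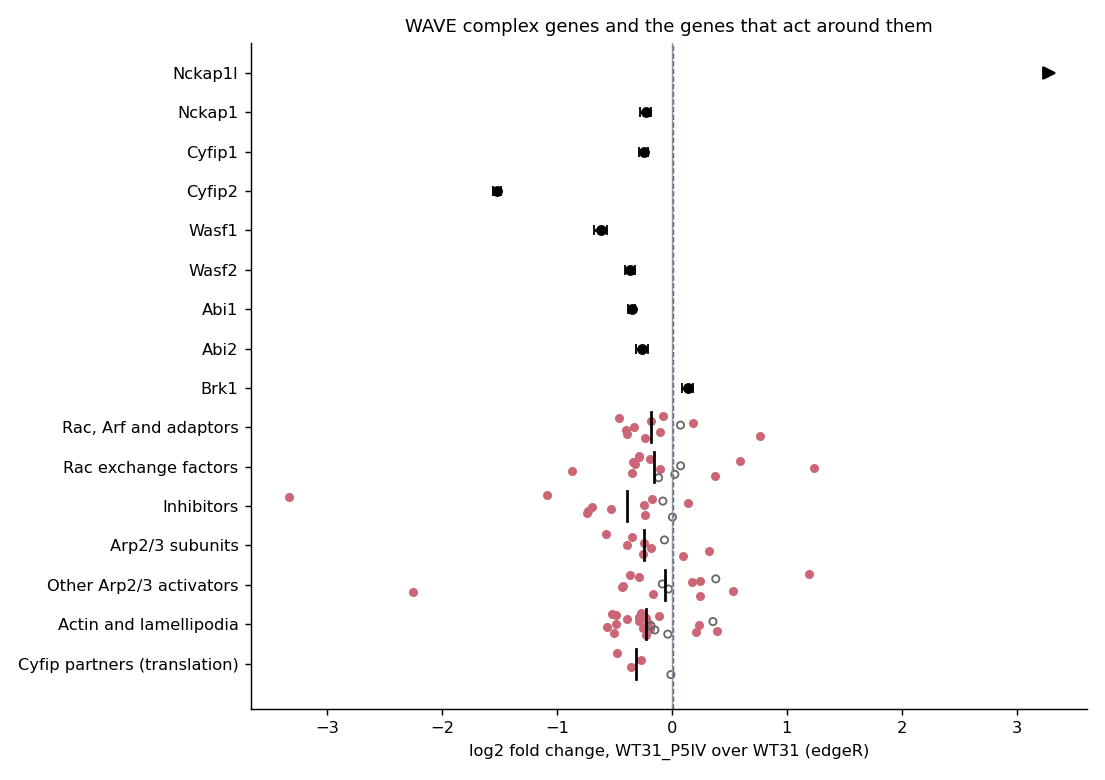
Log2 fold changes of WT31_P5IV over WT31: 9 WAVE complex genes with their SE (top; the arrowhead for Nckap1l marks its lower bound of 3.28, at least 9.74-fold, and no SE) and the tested genes of 7 lists around the complex (filled, adjusted p under 0.05; open, not; vertical bars, list medians; dashed line, median of all genes tested, 0.01). Cyfip2 lies at -1.52, Brk1 at 0.14, and the list medians lie between -0.39 and -0.06.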

How the data were processed

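Total RNA of cultured cells was sequenced in 10 libraries. According to the labels and the study's methods, the authors trimmed the reads with Trim Galore 0.6.4 and used kallisto with GRCm38 to make the deposited estimated counts and the deposited TPM per gene; kallisto divides each estimated count by transcript length, so TPM also follows the estimated mix of transcripts. The labels and the design text name different sequencers. Of 55385 gene identifiers, 55144 matched GENCODE M21 with version suffixes removed. Estimated counts were rounded and fitted in R 4.3.3 with edgeR 4.0.16 (TMM, filterByExpr, quasi-likelihood test, Benjamini-Hochberg adjustment over 13620 of the 31234 genes with a count). Standard errors were taken as the absolute log2 fold change over the root of the F statistic. Implied lengths were scaled on 307 genes with a single transcript. The fit was tested on simulated counts. Named are the 10 subunits, in each list the 4 called genes with the largest change, Abi3, the Rac genes, the tested leukocyte markers and neighbours of Nckap1l, and the 5 genes most like it; other marker genes, Coro1b and Arpc5l were added after their values were seen. The members and lists were chosen with earlier results of these data known. P-values set the difference between the groups against the spread between libraries labelled biological replicates. Alternatives were DESeq2 1.42.0, limma 3.58.1 (voom, and log2 of TPM with pseudocounts of 0.1 and 1), upper-quartile scaling, no filter, a filter that asks each library for 10 counts, a block on replicate numbers, leaving out single libraries, and, for the slots, counts divided by mean annotated transcript length.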

Additional observations from a re-analysis of the deposited data

Results flagged for a closer look

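In 118 groups of 5 libraries examined, 3 had a library that stood apart from the other 4 by Dixon's ratio at its 95% critical value, which chance passes in about 1 group in 20. Wasf1 was at 17.2 CPM in WT31 replicate 1, below the other WT31 libraries at 18.4 to 18.8 CPM, and still above all WT31_P5IV libraries. Gmfb was at 97.2 CPM in WT31_P5IV replicate 2, against 103 to 104 CPM in the other WT31_P5IV libraries. Rac3 was at 3.29 CPM in WT31 replicate 5, against 2.57 to 2.75 CPM in the other WT31 libraries.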

How the results depend on the processing

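Nckap1l, Nckap1, Cyfip1, Cyfip2, Wasf1, Wasf2, Abi1 and Abi2 kept their direction under every alternative that fitted them; the filter of 10 counts in every library leaves Nckap1l out. Brk1 reversed on TPM, to -0.039 with either pseudocount. Smug1, which was not called in the edgeR fit, was called lower on TPM (-0.24 and -0.22, adjusted p = 0.0251 and 0.0261) and was at 0.023 with upper-quartile scaling and at -0.039 to 0.023 without single libraries. The number of genes past the log2 fold change of 1, 1251, was 1883 with DESeq2, 2513 with voom, no scaling and no filter, 2332 with no filter alone, 701 with the filter of 10 counts and 465 with log2(TPM + 1), the last 2 by testing fewer or shrinking low genes. Called hepatocyte markers, 1, became 2 with voom, no scaling and no filter and 3 with no filter alone, and called stellate markers, 2, became 1 with the filter of 10 counts. Counts divided by the mean annotated length, which gives short annotated fragments the weight of full transcripts, put Nckap1l at 0.103% of its slot in WT31_P5IV, and in WT31 and WT31_P5IV Cyfip2 at 33.7% and 17.4%, Wasf1 at 4.91% and 4.13% and Abi2 at 28.2% and 29.4%; the ratio of WT31_P5IV to WT31 became 0.855 for Nckap, 0.677 for Cyfip, 0.772 for Wasf and 1.10 for Brk1. The replicate numbers did not pair the libraries: correlations of same-numbered libraries were -0.01, 0.07, 0.18, 0.08 and -0.10, 2 of 5 correlated best with their own number, and the replicate block gave 9380 calls against 9327 and the same directions for the subunits. Depth limits Nckap1l and Wasf3, which lie at or under 3 counts in WT31. The single subline and its passaging cannot be told apart.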
